A study of Mus musculus with 6 samples.

Results

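The genes described here are 34 genes of protein folding, translocation, degradation and stress sensing in the endoplasmic reticulum (ER), the membrane in which SREBP2 is held until sterols run low. They were taken by gene symbol from a table of 24421 genes, by a rule that holds no measured value, though the set was chosen with earlier results of these data known. All 34 were in the table and 33 were abundant enough to be tested. Pdia5 was left out, with 2, 1 and 1 counts in the libraries of one genotype and 0, 0 and 1 in those of the other.

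RNA-seq was done on regulatory T cells (Tregs, the Foxp3-expressing T cells that restrain immune responses) purified from mouse spleen and lymph nodes. The Srebp2WT group had the genotype Srebp2WT/WT-Foxp3YFPCRE+/+ (replicates 1, 3 and 5), and the Srebp2cKO group had Srebp2FL/FL-Foxp3YFPCRE+/- (replicates 6, 7 and 8). The comparison asks what loss of SREBP2, encoded by Srebf2, changes in these cells. Both groups carried a Cre recombinase with yellow fluorescent protein driven by Foxp3, so deletion was directed to Foxp3-expressing cells. The number of Cre alleles differed with the Srebf2 genotype, and their effects cannot be told apart. Foxp3 is X-linked, so a cell of a +/- female may have no active Cre allele. The animals' age and sex were not given in the sources used here. The labels do not state whether replicates are different animals, and p-values therefore measure only the spread between these libraries, which may be technical.

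The ER folds and glycosylates proteins that enter it through the Sec61 channel, and sends those that fail to fold back to the cytosol for degradation. When unfolded proteins build up, the sensors IRE1 (Ern1), ATF6 and PERK (Eif2ak3) start the unfolded protein response, which raises transcription of chaperones, foldases and degradation factors. ATF6 and the SREBPs leave the ER by the same route and are cut by the same Golgi proteases. Cells that secrete much protein, such as plasma cells, are known for high levels of these genes.

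A common control site of this response is the ER stress response element (ERSE), read by ATF6 and XBP1 together with NF-Y. It consists of CCAAT and CCACG separated by 9 bases. RefSeq promoters (GRCm38.p6, 250 bases before to 50 after the start) were found for 28 of the 34 genes, which had 29 promoters. On either strand, 8 of the 29 promoters (27.6%) held an ERSE, against 39 of 32851 promoters (0.119%) of all genes. The sites are shown because they place Creld2, the gene with the largest difference between genotypes, beside major chaperones that showed none past the threshold. Each is written 5′ to 3′ on the strand that carries CCAAT, with the CCAAT and CCACG boxes in capitals.
Hspa5: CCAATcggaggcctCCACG
Calr: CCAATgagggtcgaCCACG
Hsp90b1, first site: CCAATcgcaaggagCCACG
Hsp90b1, other site: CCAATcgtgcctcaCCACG
Canx: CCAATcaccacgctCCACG
Pdia6: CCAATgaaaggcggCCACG
Dnajc3: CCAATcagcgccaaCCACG
Creld2: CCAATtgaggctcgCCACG
Syvn1: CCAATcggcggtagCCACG
The most upstream base of the site lay 65 bases before the start in Hspa5, 126 in Creld2, 162 in Calr and 44 in Syvn1. Only Hsp90b1 held 2 exact matches, and copies that differ from these letters were not counted. The related element ERSE-II, with ATTGG and CCACG separated by 1 base, was found in Herpud1 and Dnajb11, which is 6.90% of the promoters against 0.0365% of all. None of the 29 promoters held the core of the unfolded protein response element, TGACGTGG (0.676% of all promoters). For CARE, the amino acid response element bound by ATF4, a single fixed pattern was searched. None of the 29 promoters matched that pattern, against 0.167% of all. Copies that differ from the pattern, such as shorter cores, were not counted, so these promoters may still hold a CARE. The core of the sterol element, TCACNCCAC, was in 1 promoter, that of Hsp90b1 (3.45% against 1.24% of all). The short boxes alone were common, with CCAAT, part of every ERSE, in 22 of 29 promoters (75.9% against 37.4%) and CCACG in 24 (82.8% against 32.8%). A match to these letters is a description of the sequence and does not show that a factor was bound.

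The libraries held 13918321 to 17249898 counts. Levels are given as CPM (read counts scaled to a common library size) adjusted with TMM factors, differences as the log2 fold change of Srebp2cKO minus Srebp2WT, and adjusted p-values come from edgeR's quasi-likelihood test over 11932 genes. Srebf2, the targeted gene, stood at 191, 192 and 172 CPM in Srebp2WT and 13.7, 12.7 and 10.7 CPM in Srebp2cKO (-3.91, SE 0.11, edgeR adjusted p = 1.5e-08). Foxp3 stood at 454 ± 11.5 and 435 ± 27.0 CPM (SD, n = 3, edgeR adjusted p = 0.611). Cd4 stood at 493 and 491 CPM and Cd3e at 630 and 593 CPM, so the cells carried the markers of their label. These markers were not all level between the genotypes. Of 8 Treg and T cell markers, 1 was called higher and 1 lower (25%, against 6.61% of all tested genes). The lower one, at a log2 fold change of -0.39, was either Cd3d or Tnfrsf18, which are not shown singly here. Il2ra rose from 691 to 920 CPM (0.41, edgeR adjusted p = 0.0101). Without overlap, Ctla4 stood higher and Ikzf2 lower in Srebp2cKO (0.23 and -0.26, edgeR adjusted p = 0.0897 and 0.0645). With a trend on transcript GC content removed, as described below, Ctla4 moved to 0.06 and Ikzf2 to -0.50 (edgeR adjusted p = 0.699 and 0.00518). Il2ra was then at 0.28 (edgeR adjusted p = 0.0377). Marker sums of 4 other cell types did not overlap between the genotypes. The 14 B cell markers summed to 57.7 to 81.2 CPM of total counts in Srebp2WT and 26.8 to 36.8 in Srebp2cKO, and the 16 myeloid markers to 70.6 to 108 and 51.3 to 59.8 (exact two-sided permutation p = 0.1 for each, the smallest p that 3 against 3 allows). Ms4a1, a defining B cell gene, had at most 2 counts in any library, and 11 of the 14 markers had at most 20. Cd74 made up most of the B cell difference, at 769, 547 and 503 counts in Srebp2WT and 219, 243 and 365 in Srebp2cKO. Cd22 and Cd79b were also lower in every Srebp2cKO library. Cd79a, with few counts, ran the other way, at 8, 11 and 12 against 14, 15 and 17. Of the myeloid markers, 12 of 16 had at most 20 counts in every library. Cybb made up most of the myeloid difference, at 1299, 806 and 719 counts in Srebp2WT and 421, 496 and 626 in Srebp2cKO. Cd68 ran the other way, with 52, 52 and 48 against 56, 73 and 65. Itgam had 13, 10 and 21 against 35, 20 and 38, higher on average in Srebp2cKO with overlapping counts. The 3 CD8 T cell markers summed to more in Srebp2cKO (8.75 to 10.3 CPM) than in Srebp2WT (7.08 to 7.78, exact permutation p = 0.1). The 5 natural killer cell markers summed to less (0.718 to 1.04 against 1.81 to 3.09, exact permutation p = 0.1). At most 20 counts in every library were found for 2 of these 3 and 4 of these 5 markers. Cd8b1 had 115, 111 and 99 counts against 133, 131 and 137. Klrb1c had 42, 24 and 27 against 9, 13 and 14, and 3 natural killer cell markers, among them Ncr1, had 0 counts throughout. Of 12 plasma cell markers outside the ER, 4 were in the table and summed to 4.76 to 9.58 CPM in Srebp2WT and 3.38 to 5.91 in Srebp2cKO (exact permutation p = 0.2). Tnfrsf17 had 0 counts in every library. The part of these markers in the results below was not tested. In RNA of bulk cells, fewer cells of a type and less RNA per cell cannot be told apart.

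Most of the ER genes stood at near-equal levels in the 2 genotypes. At a false discovery rate of 0.05, Ssr3 was called higher in Srebp2cKO and Creld2 lower. These are 6.06% of the 33 tested, against 6.61% of all tested genes (2.37% higher and 4.24% lower). The share was near the background. The log2 fold changes ran from -0.86 to 0.54 with a median of 0.00, and 17 were positive and 16 negative. The median absolute log2 fold change was 0.10, against 0.18 over all tested genes, and 31 of 33 (93.9%) lay within 0.5 of zero against 87.6% of all genes. For 24 of the 33 genes the 95% interval of the log2 fold change lay wholly within 0.5 of zero, and for 32 within 1. The unadjusted p was under 0.05 for 7 genes (21.2%, against 29.1% of all tested genes). DESeq2 called 5 genes (15.2%, against 11.8%) and limma-voom 1 (3.03%, against 6.55%).

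All 3 Srebp2cKO libraries stood above all 3 Srebp2WT libraries for 2 genes, Edem1 and Ssr3 (6.06% against 16.0% of all tested genes). They stood below for 6 genes, Hyou1, Sdf2l1, Creld2, Ppib, Syvn1 and Sec61a1 (18.2% against 15.5%). The plot of levels by library shows each gene relative to its Srebp2WT mean.

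**Figure D1:**
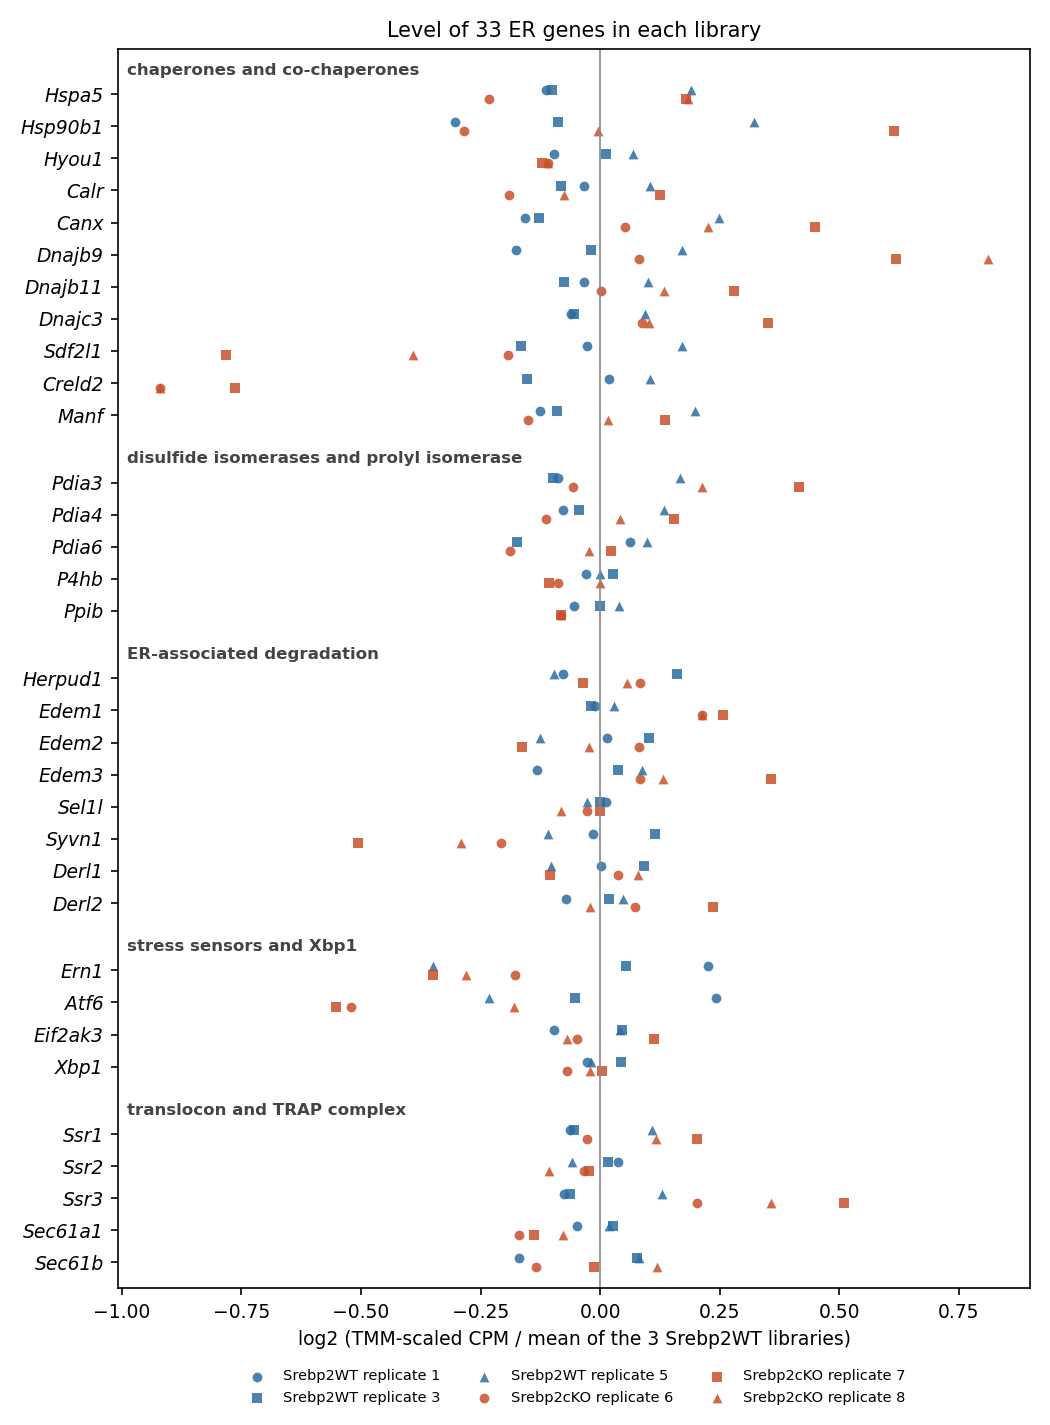
Level of each of the 33 tested ER genes in each library as log2 of TMM-scaled CPM over the mean of the 3 Srebp2WT libraries (x axis), by role; blue points are Srebp2WT and orange points Srebp2cKO, 1 symbol per replicate. The genotypes overlap for 25 of the genes, and Creld2 is the gene whose Srebp2cKO points lie farthest below.

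Of the 11 chaperones and co-chaperones, Creld2 fell (9.09%, against 6.61% of all tested genes) and the other 10 did not pass the threshold. The median log2 fold change was 0.06 (range -0.86 to 0.54). DESeq2 called 2 of the 11, Creld2 and Dnajb9 (18.2%, against 11.8% of all tested genes). Hspa5 (BiP, the ER Hsp70 that binds the stress sensors at rest) stood at 355, 358 and 438 CPM in Srebp2WT and 327, 435 and 436 CPM in Srebp2cKO. Replicate 6 was low in Srebp2cKO and replicate 5 high in Srebp2WT, and the genotypes overlapped. The log2 fold change was 0.06 (95% interval -0.21 to 0.33, edgeR adjusted p = 0.778). Calr (calreticulin, a lectin chaperone of glycoproteins) was the highest of all 34 genes per kilobase of transcript, at 179 CPM per kilobase over the 6 libraries. It stood at 388, 375 and 427 CPM in Srebp2WT and 348, 433 and 377 CPM in Srebp2cKO, with overlapping genotypes (-0.04, edgeR adjusted p = 0.803).

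Hsp90b1 (GRP94, the ER Hsp90) varied most within a genotype of the 33 genes, with a pooled SD of 0.40 on the log2 scale. It stood at 299, 347 and 461 CPM in Srebp2WT and 303, 565 and 368 CPM in Srebp2cKO, so each genotype had 1 library well above its other 2 (log2 fold change 0.16, 95% interval -0.31 to 0.63). Dnajb9 (ERdj4, a BiP co-chaperone and a known XBP1 target) stood at 26.1, 29.1 and 33.2 CPM in Srebp2WT and 31.2, 45.3 and 51.8 CPM in Srebp2cKO. Replicate 6 of Srebp2cKO lay among the Srebp2WT libraries and replicates 7 and 8 above them. Its log2 fold change of 0.54 (95% interval 0.17 to 0.91) had an edgeR adjusted p of 0.0749, and 0.0146 without Srebp2cKO replicate 6. Sdf2l1, a member of ER chaperone complexes, stood at 9.15, 8.31 and 10.5 CPM and at 8.15, 5.42 and 7.11 CPM (-0.44, edgeR adjusted p = 0.147). Hyou1, Canx, Dnajb11, Dnajc3 and Manf, which include the nucleotide exchange factor of BiP (Hyou1), a membrane lectin (Canx) and the co-chaperones Dnajb11 and Dnajc3, had log2 fold changes of -0.11, 0.25, 0.15, 0.19 and 0.01, and none passed.

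Creld2, an ER protein with disulfide isomerase activity that is secreted on ER stress, stood at 16.2, 14.4 and 17.2 CPM in Srebp2WT (replicates 1, 3 and 5) and 8.45, 9.42 and 8.45 CPM in Srebp2cKO (replicates 6, 7 and 8). Every Srebp2cKO library lay below every Srebp2WT library, and the gap between the genotypes was larger than the spread within either. The means were 16.0 ± 1.40 and 8.77 ± 0.560 CPM (SD, n = 3), a log2 fold change of -0.86 (SE 0.13, 95% interval -1.15 to -0.58, edgeR adjusted p = 0.0058). The call held in DESeq2, in limma-voom, under each scaling and filter tried and without each library in turn (edgeR adjusted p 0.0106 to 0.0287). No 50-base word of its transcript was shared with another gene. Its promoter, upstream of the start at chr15:88819396-88819645 (GRCm38.p6, plus strand), is shown with that of Hspa5 at chr2:34771840-34772089 (plus strand). They are shown because both hold 1 exact ERSE match (capitals) and only Creld2 fell. Inexact copies are not marked. The Creld2 site lies in the opposite orientation.
Creld2 upstream: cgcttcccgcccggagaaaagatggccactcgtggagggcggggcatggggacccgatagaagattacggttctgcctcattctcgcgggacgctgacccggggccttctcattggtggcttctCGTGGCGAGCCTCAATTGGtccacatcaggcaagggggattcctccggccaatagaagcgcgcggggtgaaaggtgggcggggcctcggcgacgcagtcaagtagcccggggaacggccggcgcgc
Hspa5 upstream: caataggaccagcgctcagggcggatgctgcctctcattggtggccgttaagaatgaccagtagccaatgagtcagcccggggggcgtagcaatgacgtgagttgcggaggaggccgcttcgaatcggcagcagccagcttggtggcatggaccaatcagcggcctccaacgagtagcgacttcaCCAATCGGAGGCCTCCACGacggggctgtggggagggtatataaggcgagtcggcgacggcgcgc

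Among the 8 genes with an ERSE, Creld2 alone was called, where 6.61% of all tested genes were called. The log2 fold changes of these 8 had a median of 0.01 (-0.86 to 0.25, with 4 positive and 4 negative). The other 25 tested genes had a median of 0.00 (-0.44 to 0.54) and 1 call, Ssr3. Outside the 34 genes, 9 tested genes had an ERSE and 3 of them were called (33.3%). These were Alg12, Adcy3 (-0.32, edgeR adjusted p = 0.0454) and Xlr3b (1.91, edgeR adjusted p = 0.0243). Xlr3b was low, at means of 2.38 CPM in Srebp2WT and 8.9 CPM in Srebp2cKO. With a trend on transcript GC content removed, as described below, 2 of the 9 were called, 1 higher and 1 lower. The lower one was Alg12 (-0.70, edgeR adjusted p = 0.0039), so Adcy3 lost its call. Alg12, an ER mannosyltransferase that builds the N-glycan precursor, lies head to head with Creld2 across 327 bases, so the same ERSE stands between both genes. It is not one of the 34, and it was looked at after its values were seen. Alg12 stood at 25.1, 23.8 and 21.3 CPM in Srebp2WT and 14.8, 12.7 and 13.9 CPM in Srebp2cKO, with no overlap. It fell by 0.76 on the log2 scale (SE 0.11, edgeR adjusted p = 0.00601). Of the 13 other tested genes within 0.5 Mb of Creld2, 0 passed in edgeR, 6 had an unadjusted p under 0.05 (46.2%, against 29.1% of all tested genes) and 10 had a negative log2 fold change (76.9%, against 5968 of 11932 tested genes; smallest edgeR adjusted p = 0.0686, Plxnb2). Creld2 lies on chromosome 15, 6.61 Mb from Srebf2.

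**Figure D2:**
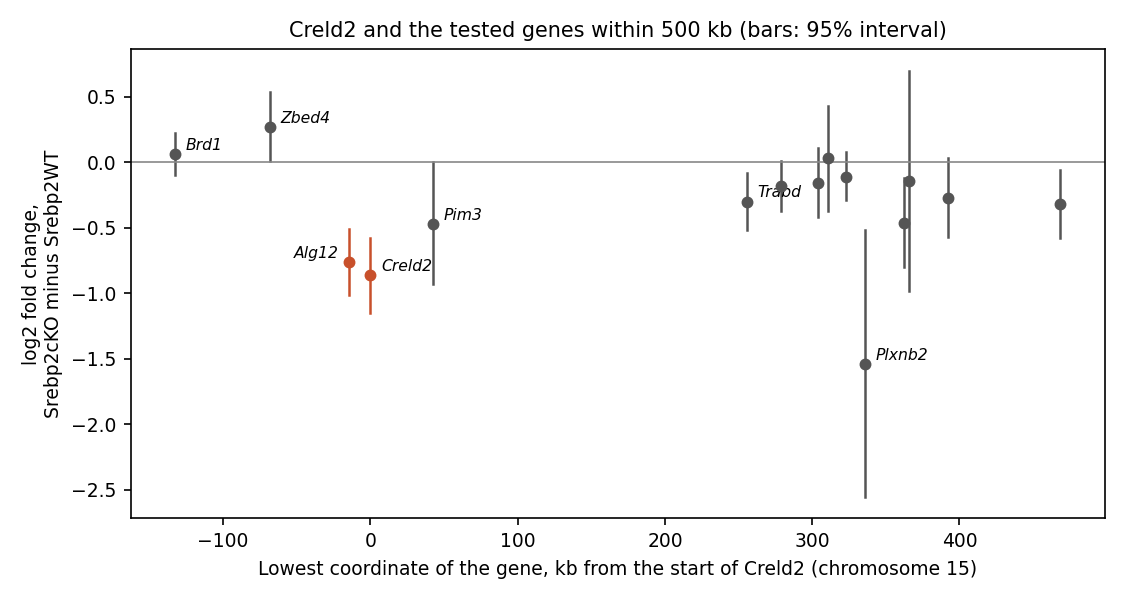
Log2 fold change, Srebp2cKO minus Srebp2WT (y axis, points; bars are 95% intervals), of the 15 tested genes within 0.5 Mb of Creld2 against the distance of their lowest coordinate from the Creld2 start in kb (x axis). Creld2 and Alg12 (orange) passed the threshold at -0.86 and -0.76, and the 13 other genes (grey) did not.

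The disulfide isomerases, which form and reshuffle disulfide bonds, and the prolyl isomerase Ppib did not pass the threshold. Of the 5 tested, 0 passed in edgeR, 0 had an unadjusted p under 0.05, and DESeq2 and limma-voom called 0. Over all tested genes these shares were 6.61%, 29.1%, 11.8% and 6.55%. Pdia3 (ERp57, the partner of calreticulin and calnexin) was the highest per kilobase at 152 CPM per kilobase and had the smallest p of the group. It stood at 368, 365 and 439 CPM in Srebp2WT and 376, 522 and 453 CPM in Srebp2cKO, where the highest Srebp2WT library lay above the lowest Srebp2cKO library (0.20, 95% interval -0.06 to 0.47, edgeR adjusted p = 0.279). P4hb, the founding protein disulfide isomerase, stood at 151, 157 and 154 CPM and at 145, 143 and 154 CPM (-0.06, 95% interval -0.21 to 0.09). The log2 fold changes of Pdia4, Pdia6 and Ppib were 0.03, -0.06 and -0.08. Counts of Ppib are less certain than those of the others, since 53.4% of the 50-base words of its transcript occur in other genes and 25.0% of its exonic bases overlap Snx22 on the other strand.

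Degradation factors showed 1 gene on each side of zero near the threshold and none past it. The group covers the mannosidase-like proteins that mark misfolded glycoproteins (Edem1, Edem2, Edem3), the ubiquitin ligase HRD1 (Syvn1) with its partner Sel1l, the Derlins of the retrotranslocation channel and the scaffold Herpud1. Of the 8 genes, 0 passed in edgeR (against 6.61% of all tested genes) and in limma-voom (against 6.55%). The unadjusted p was under 0.05 for 2 (25.0%, against 29.1%). DESeq2 called these 2, Edem1 and Syvn1 (25.0%, against 11.8%). Edem1, the group's smallest p and its highest level per kilobase (56.3 CPM per kilobase), stood at 300, 298 and 308 CPM in Srebp2WT and 350, 361 and 350 CPM in Srebp2cKO. The libraries did not overlap, and the log2 fold change was 0.23 (95% interval 0.08 to 0.38, edgeR adjusted p = 0.0646). Syvn1 stood at 51.6, 56.4 and 48.3 CPM and at 45.1, 36.7 and 42.6 CPM, also without overlap and in the other direction (-0.33, 95% interval -0.55 to -0.11, edgeR adjusted p = 0.0737; 0.0452 without Srebp2cKO replicate 6). Sel1l, which forms a complex with Syvn1, was at 108 ± 1.51 and 105 ± 2.98 CPM (SD, n = 3; edgeR adjusted p = 0.759). The log2 fold changes of Herpud1, Edem2, Edem3, Derl1 and Derl2 were 0.04, -0.03, 0.20, 0.01 and 0.10.

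The sensors did not pass the threshold, and their levels per kilobase were low, at 1.71 (Ern1), 4.15 (Atf6) and 7.58 (Eif2ak3) CPM per kilobase against 7.32 to 179 among the chaperones. Of Ern1, Atf6, Eif2ak3 and Xbp1, 0 passed in edgeR, in DESeq2 and in limma-voom (against 6.61%, 11.8% and 6.55% of all tested genes). Only Atf6 had an unadjusted p under 0.05 (25.0%, against 29.1%). Atf6 stood at 40.6, 33.1 and 29.2 CPM in Srebp2WT and 23.9, 23.4 and 30.3 CPM in Srebp2cKO. The highest Srebp2cKO library, replicate 8, lay above the lowest Srebp2WT library, replicate 5 (-0.41, 95% interval -0.72 to -0.09, edgeR adjusted p = 0.102). Ern1 was low in all libraries, at 15.2, 13.5 and 10.2 CPM and at 11.5, 10.2 and 10.7 CPM, with overlapping genotypes (-0.27, 95% interval -0.62 to 0.08, edgeR adjusted p = 0.280).

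Eif2ak3 (PERK, the kinase that slows translation) stood at 32.0, 35.3 and 35.2 CPM in Srebp2WT and 33.1, 37.0 and 32.6 CPM in Srebp2cKO (0.00, 95% interval -0.20 to 0.21, edgeR adjusted p = 0.984). Xbp1, the transcription factor whose mRNA IRE1 splices, was the highest of the 4 per kilobase (29.9 CPM per kilobase). It stood at 63.0, 66.2 and 63.4 CPM and at 61.2, 64.4 and 63.3 CPM, which overlap within a narrow range (-0.03, 95% interval -0.19 to 0.14, edgeR adjusted p = 0.830). Gene counts do not separate the spliced form of Xbp1, and the activity of the sensors was not measured.

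Among the 5 translocon genes, Ssr3 rose (20%, against 6.61% of all tested genes) and the others did not pass. SSR proteins form the TRAP complex, which assists the Sec61 channel, of which Sec61a1 and Sec61b are subunits. Ssr3, the gamma subunit of TRAP, stood at 132, 133 and 152 CPM in Srebp2WT and 160, 198 and 178 CPM in Srebp2cKO. Every Srebp2cKO library lay above every Srebp2WT library, and the nearest, replicates 5 and 6, were close. The means were 139 ± 11.6 and 179 ± 19.3 CPM (SD, n = 3), a log2 fold change of 0.37 (SE 0.10, 95% interval 0.15 to 0.58, edgeR adjusted p = 0.0490). This call sat at the threshold. It was lost without Srebp2WT replicate 1 or 3 (edgeR adjusted p = 0.195 and 0.180) and without Srebp2cKO replicate 7 or 8 (edgeR adjusted p = 0.143 and 0.116), and with other settings given in the closing section.

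No other TRAP or Sec61 gene of the group passed the threshold. Ssr1 and Ssr2 had log2 fold changes of 0.10 and -0.05 (edgeR adjusted p = 0.448 and 0.678). Sec61b, the group's highest level per kilobase (57.7 CPM per kilobase), stood at 29.0, 34.4 and 34.5 CPM and at 29.7, 32.3 and 35.4 CPM (-0.00, edgeR adjusted p = 0.984). Sec61a1, the channel itself, stood at 149, 157 and 156 CPM and at 137, 140 and 146 CPM (-0.13, 95% interval -0.28 to 0.03, edgeR adjusted p = 0.252), with no overlap. Counts of Sec61b are uncertain, since 41% of its 50-base words occur in other genes, against 0% for Ssr3 and Ssr2. For Sec61a1 the share was 14.6%, and 8.16% of its exonic bases overlap Gm44170 on the other strand. Ssr2 overlaps the pseudogene Gm10704 on the other strand over 12.8% of its exonic bases.

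**Figure D3:**
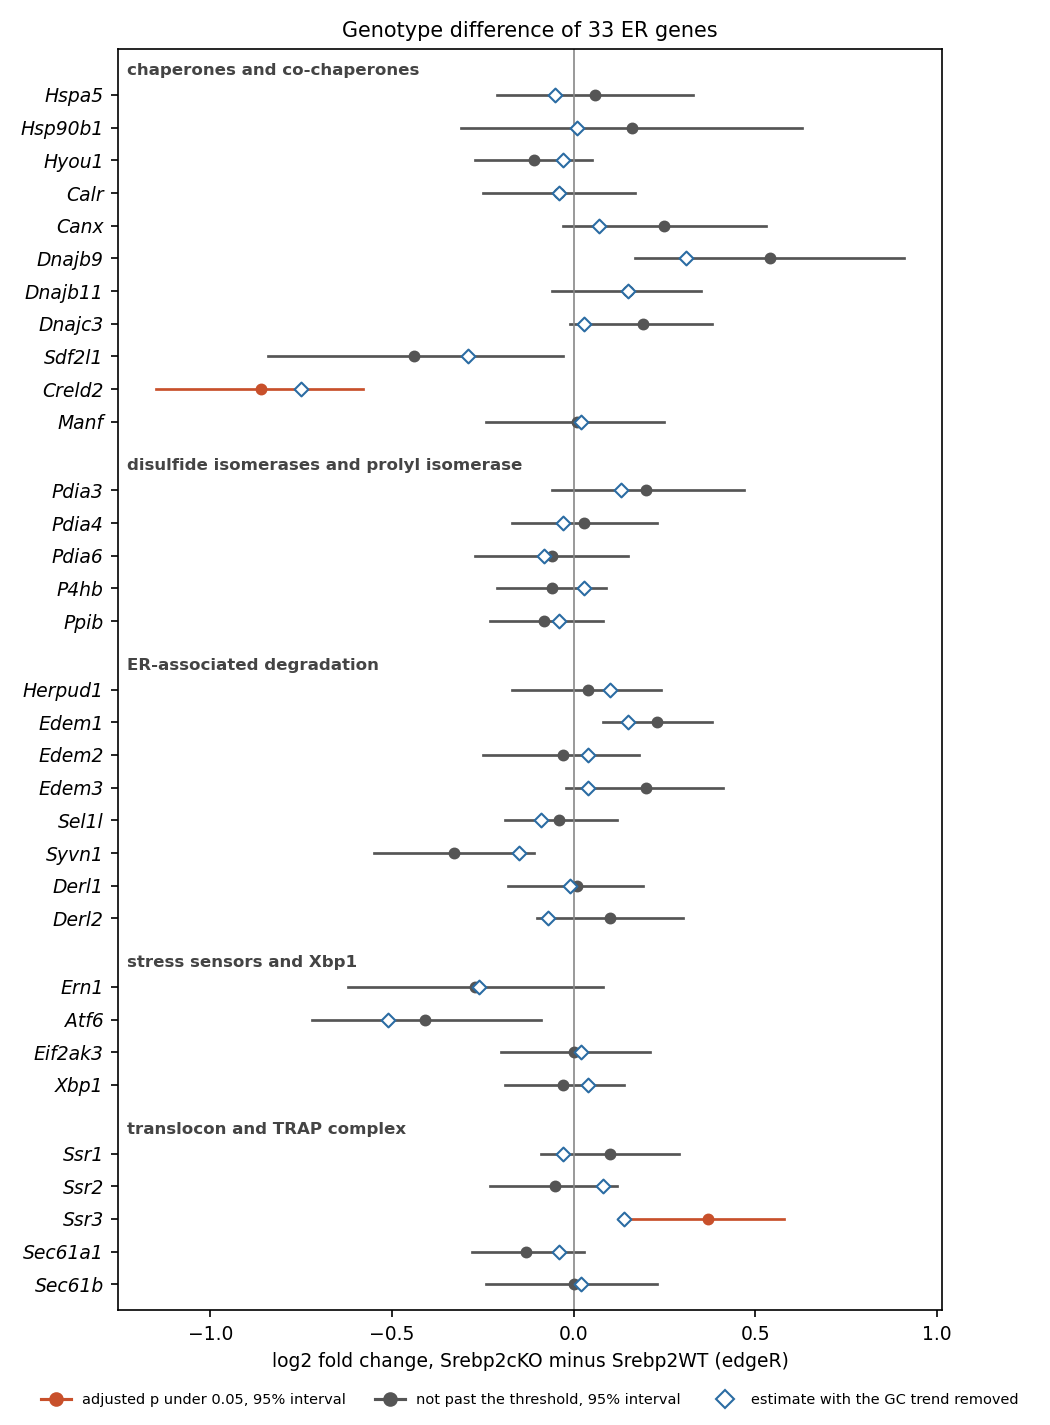
Log2 fold change of the 33 tested ER genes, Srebp2cKO minus Srebp2WT (x axis), with 95% intervals from edgeR; orange marks genes with an adjusted p under 0.05, and open diamonds give the estimate with the GC trend removed. Creld2 at -0.86 keeps its place after the GC trend is removed (-0.75) and Ssr3 moves from 0.37 to 0.14.

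GC content of the transcripts went along with many of these differences. Across the 33 genes the log2 fold change and transcript GC had a Pearson r of -0.69 and a Spearman rho of -0.78, against -0.33 and -0.51 across 11459 tested genes. These correlations are across genes, which share the same 6 libraries and are not independent replicates. Of the 10 genes with under 46% GC, 9 had a positive log2 fold change (median 0.17), and of the 11 with at least 52% GC, 10 had a negative one (median -0.08). The slope of log2 CPM on GC differed between libraries, from -0.348 to -0.508 per 10 percentage points in Srebp2WT and from -0.516 to -0.778 in Srebp2cKO, with no overlap between the genotypes.

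With a GC trend removed from each library, Creld2 was the only one of the 33 genes still called (5.66% of all tested genes were called). Its log2 fold change was then -0.75 (edgeR adjusted p = 0.0104). Ssr3, with 40.8% GC, moved to 0.14 (edgeR adjusted p = 0.166), Dnajb9 to 0.31 (edgeR adjusted p = 0.212), Edem1 to 0.15 (edgeR adjusted p = 0.147) and Syvn1 to -0.15 (edgeR adjusted p = 0.262). Atf6 moved away from zero, to -0.51 (edgeR adjusted p = 0.0634). The low-GC genes then had a median of 0.02 and the high-GC genes one of -0.03. Whether the GC trend is technical was not tested.

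**Figure D4:**
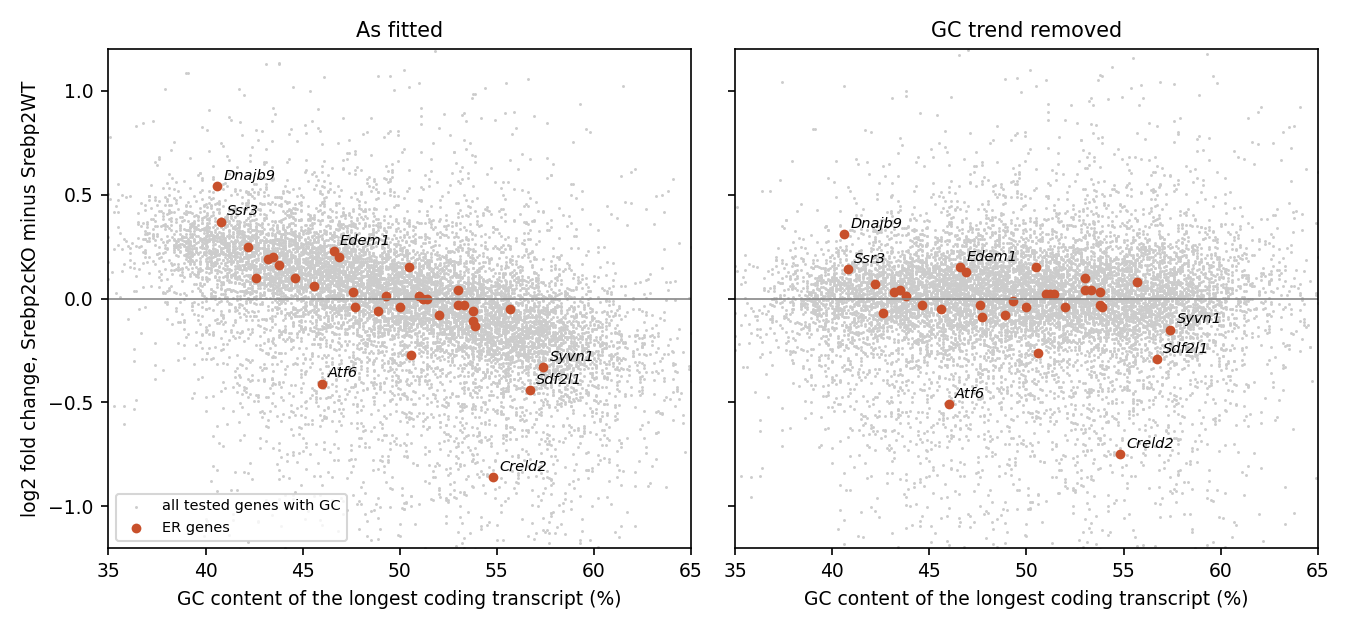
Log2 fold change, Srebp2cKO minus Srebp2WT (y axis), against transcript GC in percent (x axis) for tested genes (grey) and the ER genes (orange), as fitted (left) and with a GC trend removed from each library (right); the axes are limited to GC of 35% to 65% and log2 fold changes of -1.2 to 1.2, which leaves out 330 tested genes on the left. The correlation across the ER genes on the left (Pearson r = -0.69) is weaker on the right (r = -0.33), where Creld2 and Atf6 stand apart.

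The chaperones stood high or low together in single libraries of a genotype. All 11 were above their own genotype's mean in Srebp2WT replicate 5 (median log2 deviation 0.18) and 9 of 11 in Srebp2cKO replicate 7 (0.14). In Srebp2cKO replicate 6, 2 of 11 were above (-0.14). Over all tested genes the median deviations of these libraries lay between -0.01 and 0.01. Replicate 7 had the highest value of the 6 libraries for 13 of 33 ER genes (39.4%, against 28.0% of all tested genes) and replicate 6 for 0 (against 13.0%). Within each genotype the library with the highest chaperones had the steepest GC slope (-0.508 per 10 points in Srebp2WT replicate 5 and -0.778 in Srebp2cKO replicate 7). Srebp2cKO replicate 6, where most chaperones lay below their own genotype's mean, had a slope of -0.516. The part of GC in this pattern was not tested. The median pooled SD within a genotype was 0.12 on the log2 scale for the ER genes and 0.15 for all tested genes.

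**Figure D5:**
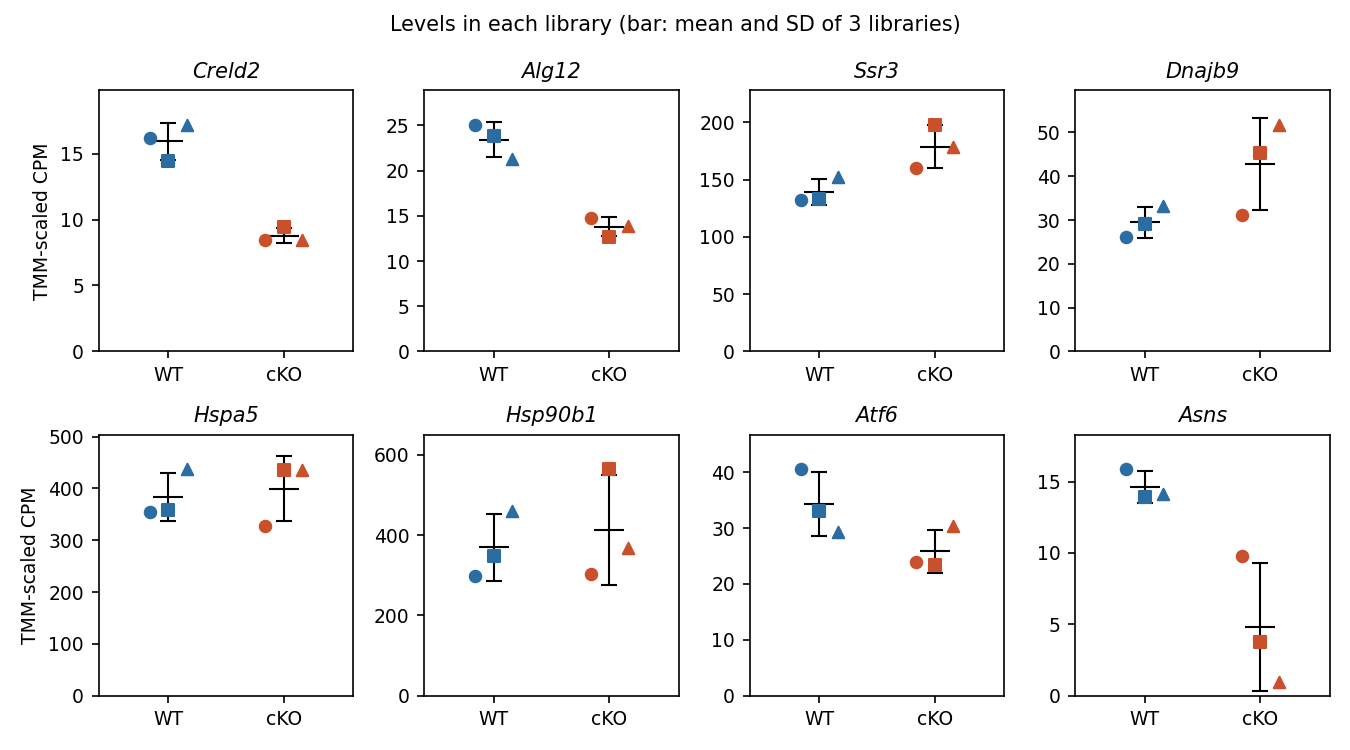
TMM-scaled CPM (y axis) in each library by genotype (x axis) for 6 ER genes and for Alg12 and Asns; points are libraries (circle, square and triangle for replicates 1, 3 and 5 of Srebp2WT and 6, 7 and 8 of Srebp2cKO), and bars give mean and SD of 3 libraries. Creld2 and Alg12 separate by genotype, while Hspa5 and Hsp90b1 overlap and spread widely.

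Other genes of the same pathways, were counted in lists written from textbook knowledge. Of 31 other folding factors tested, 0 passed in edgeR or limma-voom, 9 had an unadjusted p under 0.05 (29.0%, against 29.1% of all tested genes) and DESeq2 called 3, Prkcsh, Tmx3 and Qsox1 (9.68%, against 11.8%; median log2 fold change 0.01, against -0.00 over all tested genes). Of 29 other degradation factors, 0 passed in edgeR, DESeq2 or limma-voom and 2 had an unadjusted p under 0.05 (6.90%, against 29.1%; median 0.02). Of 46 other translocation, glycosyl transfer and signal peptidase genes, 1 was lower and 0 were higher (2.17%, against 6.61% of all tested genes; median 0.03). The lower gene was Dad1, a subunit of the oligosaccharyltransferase that attaches N-glycans. It stood at 59.7, 68.7 and 58.0 CPM in Srebp2WT and 38.8, 34.7 and 35.5 CPM in Srebp2cKO, with no overlap, and fell by 0.77 on the log2 scale (SE 0.09, edgeR adjusted p = 0.00168).

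Among 23 tested genes of the PERK and ATF4 branch, 0 passed in edgeR, 6 had an unadjusted p under 0.05 (26.1%, against 29.1% of all tested genes), DESeq2 called Cebpb and limma-voom called Asns (median 0.02). Asns (asparagine synthetase, an ATF4 target) had the smallest p of the list, at 15.9, 13.9 and 14.1 CPM in Srebp2WT and 9.77, 3.74 and 0.991 CPM in Srebp2cKO. Its Srebp2cKO libraries all lay below the Srebp2WT libraries and differed widely among themselves (-1.64, edgeR adjusted p = 0.0721). Atf4 and Ddit3 (CHOP), the branch's transcription factors, had log2 fold changes of 0.02 and 0.15 (edgeR adjusted p = 0.916 and 0.531). Ppp1r15a (GADD34, which reverses the translation block) stood at 28.4, 38.3 and 50.2 CPM and at 33.1, 38.3 and 113 CPM, where replicate 8 stood alone (edgeR adjusted p = 0.287).

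The remaining lists cover stress transducers and vesicle traffic. Of 19 other stress transducers, 1 was higher and 1 lower (10.5%, against 6.61% of all tested genes; median -0.03). Txnip, a thioredoxin inhibitor that IRE1 and PERK signals are known to raise, rose from 821 ± 90.6 to 1208 ± 88.1 CPM (SD, n = 3; 0.56, edgeR adjusted p = 0.0128). Bak1, a BCL2-family effector also found at the ER, fell by 0.41 on the log2 scale (edgeR adjusted p = 0.0257), and by 0.23 with the GC trend removed (edgeR adjusted p = 0.145). Its call was also lost without Srebp2WT replicate 1 or 3 (edgeR adjusted p = 0.107 and 0.112) and without Srebp2cKO replicate 8 (edgeR adjusted p = 0.0866). Mbtps1 and Mbtps2, the proteases that cut both ATF6 and the SREBPs, had log2 fold changes of -0.12 and 0.22 (edgeR adjusted p = 0.292 and 0.221). Of 39 genes listed under COPII and Golgi traffic, 2 were higher and 1 lower (7.69%, against 6.61%, with a median of -0.01). The list also holds the ER proteins Serp1 and Serp2, which are not coat or Golgi proteins. Serp1, a small protein that stabilises new membrane proteins under ER stress, rose by 0.46 (edgeR adjusted p = 0.0339), Sec24a, a COPII cargo adaptor, by 0.28 (edgeR adjusted p = 0.0450), and Ergic1, of the ER-Golgi intermediate compartment, fell by 0.30 (edgeR adjusted p = 0.0460). All 3 of these calls were lost without Srebp2WT replicate 1 or 3 and without Srebp2cKO replicate 7 or 8, where edgeR adjusted p values ran from 0.0610 to 0.182. Sec24a was also lost with the GC trend removed (0.14, edgeR adjusted p = 0.298), without Srebp2cKO replicate 6 (edgeR adjusted p = 0.0556), and with total-count or upper-quartile scaling (edgeR adjusted p = 0.0591 and 0.0552).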

How the data were processed

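Per the labels' protocols, RNA of the 6 Treg samples came from a Qiagen RNeasy kit, and a KAPA RNA HyperPrep kit with RiboErase gave libraries depleted of ribosomal RNA. Raw counts by gene symbol, as deposited, had a column for each library, matched by sample title. The submitters' processing notes name HISAT2 2.2.1, mm10 and Cell Ranger without roles. Not given in the sources used here are the counter, the annotation and the strand setting. Overlapping or near-identical genes therefore have uncertain counts. Library totals were 13918321 to 17249898.

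Genes passing filterByExpr (11932 of 24421) were scaled by TMM. The test was edgeR 4.0.16's quasi-likelihood F test (R 4.3.3) on all 6 libraries, no covariate, Benjamini-Hochberg over all tested genes, false discovery rate 0.05. The code was tested on simulated data. Alternatives were DESeq2 1.42.0, limma-voom (limma 3.58.1), scaling by RLE, total counts or upper quartile, no filter, at least 1 CPM in 3 libraries, a false discovery rate of 0.1, removal of a loess GC trend (span 0.3) and leaving out each library. Transcript GC, lengths and coordinates came from GENCODE M21 (GRCm38) and promoters from RefSeq (GRCm38.p6).

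The members and gene lists were chosen with earlier results of these data known. Named genes were Srebf2 and Foxp3; members past the threshold; Hspa5, Ern1, Atf6, Eif2ak3 and Xbp1; in each role group the member with the smallest p and that with the highest level per kilobase; and up to 4 genes past the threshold in each other list. Other genes given with values were chosen after their values were seen. Protein sequences were not used here.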

Additional observations from a re-analysis of the deposited data

How the results depend on the processing

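Over 15 alternative settings, 478 of 495 values of the ER genes kept their call, 8 lost it (Ssr3 each time), 9 gained one (Dnajb9, Edem1 and Syvn1) and 0 called values changed sign; 41 uncalled values in 16 genes did, all with a log2 fold change of at most 0.16 in size. Creld2 was called in every setting. Ssr3 had an adjusted p of 0.166 with the GC trend removed, 0.0516 with RLE, 0.0501 in limma-voom and 0.0655 with total counts. Counts of called genes moved as follows, and the cause was not tested. The 34-gene count of 2 became 5 in DESeq2 and at a false discovery rate of 0.1, 1 with RLE, limma-voom, total counts or the GC trend removed, and 1 to 4 without single libraries. All genes called (789) became 1404 in DESeq2, 1205 with no filter, 1893 at a false discovery rate of 0.1 and 167 to 1487 without single libraries: 167 without Srebp2WT replicate 1, 184 without replicate 3, and 298, 439 and 1487 without Srebp2cKO replicates 7, 8 and 6. Total-count scaling put 24.4% of called genes higher, against 35.9%.

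By role, chaperones (1) became 2 in DESeq2, with no filter and at 0.1, and 1 to 2 without single libraries. Degradation factors (0) became 2 in DESeq2 and at 0.1, and 0 to 1 without single libraries. Translocon genes (1) became 0 with the GC trend removed, RLE, limma-voom or total counts, and 0 to 1 without single libraries. Isomerases and sensors stayed at 0 in every setting.

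In the other lists, folding factors (0) became 3 in DESeq2, 1 with no filter, total counts or upper quartile, 4 at 0.1 and 0 to 3 without single libraries. Degradation (0) became 1 at 0.1 and 0 to 1. Translocation (1) became 3 in DESeq2 and with no filter, 6 at 0.1 and 1 to 5. PERK and ATF4 genes (0) became 1 in DESeq2 and limma-voom, 2 with no filter, 3 at 0.1 and 0 to 2. Stress transducers (2) became 1 with the GC trend removed, 5 at 0.1 and 1 to 3. COPII and Golgi genes (3) became 7 at 0.1 and 0 to 4.

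No paired analysis was possible because the genotypes share no replicate numbers (1, 3 and 5 against 6, 7 and 8). With 3 libraries a genotype, the 95% intervals of 9 of 33 ER genes reached beyond a log2 fold change of 0.5 in size.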
